A study of Mus musculus with 6 samples.

Results

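Hepatocyte nuclei of lactating mice were described within a single stage, day 7 after birth (stage P7L). All nuclei whose column names carried that stage were taken, 606 of the 1567 nuclei of the series, and no other stage was compared with them. They came from female WT C57BL/6J mice, mated at about 8 weeks of age, and fell into 2 libraries. The liver tissue library held 308 nuclei, numbered as replicate 1, and the perfusion library held 298, numbered as replicate 2. Libraries were made by Smart-seq3xpress, which reads whole transcripts of single cells or nuclei held in wells. The titles call the samples snRNA-seq of hepatocytes, while the protocol text of both libraries describes perfused, Percoll-enriched and hand-picked whole hepatocytes. The labels name no animal, so a difference between the libraries may come from the preparation, the animal or the plate, and these cannot be told apart. Nuclei of a library are not replicates of the stage, and 2 libraries allow no test across samples. Every statement below is therefore a description, read in each library by itself, and no p-value was formed.

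The liver lobule is organised between the portal triad, where blood enters, and the central vein, where it leaves. Periportal hepatocytes are known for gluconeogenesis, ureagenesis and amino acid breakdown, and pericentral hepatocytes for drug metabolism, bile acid synthesis and, in the cells next to the central vein, glutamine synthesis. Wnt ligands from the central vein endothelium keep the pericentral programme on. In lactation the liver supplies glucose, amino acids and lipid to the mammary gland, and prolactin and growth hormone act on hepatocytes through the receptors Prlr and Ghr. RNA in a nucleus is largely unspliced or newly made, so nuclei show genes of long span more strongly than whole cells do.

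The liver tissue library held 258327734 reads with a median of 731494 per nucleus (range 28679 to 3747490), and the perfusion library 327263106 with a median of 974491 (242051 to 3470006). Of 40824 gene rows, 7732 had a mean of at least 10 CPM (reads of a gene scaled to the total of each nucleus) and reads in at least 10% of nuclei in both libraries, and only these were described further. The 12 hepatocyte markers took 1.76% of reads in liver tissue and 1.87% in perfusion, and all 12 were measured. The 12 cholangiocyte markers took 0.0937% and 0.0911%, mostly Onecut2, and Krt19, Krt7, Epcam and Spp1 were not among the measured genes. The lymphocyte list took 0.026% and 0.0352%, mostly Bach2, and the macrophage list 0.00525% and 0.00657%. Endothelial, stellate, neutrophil, erythroid and mesothelial lists each took under 0.003% in both libraries, and none of their genes was measured. No 2 nuclei were identical and the libraries shared 0 barcodes. The rows of Xist and of the liver gene Oat were at 0 reads in both libraries, and 4 Y-linked genes held 137 reads in liver tissue and 225 in perfusion, so Xist could not be used to check the labelled sex.

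Each library fell into 2 runs of nucleus numbers. The labels do not say what the numbers follow, and the break was found from the data, so the runs carry no test. Scanning all positions, the shift over all measured genes was largest after nucleus 152 in liver tissue and after nucleus 164 in perfusion. The shift is the mean over genes of the squared difference between standardised means, scaled by the group sizes, and is near 1 where a split separates nothing. It was 6.04 and 6.36 at the breaks and at most 1.39 inside the runs. Liver tissue thus had 152 nuclei in the first run and 156 in the later run, and perfusion 164 and 134. Median reads were 660219 in the first run and 836932 in the later run of liver tissue, and 1028148 and 927124 in those of perfusion. The calls for zone, spread, on/off state and linked pairs were therefore also read in all 4 runs.

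On the authors' length-scaled values small nucleolar RNAs led. Snord13 averaged 2807 in liver tissue and 1976 in perfusion on that scale, and Snord118, the U8 RNA of ribosome assembly, 2660 and 2106. They were followed by Immp2l, a mitochondrial inner membrane peptidase gene of long span, with 1654 and 1652, and by Adk, adenosine kinase, with 1383 and 1458. The secretory genes Alb (1117 and 1136) and Apoa2 (1116 and 905) and the nuclear RNA Malat1 (823 and 776) came next. Hamp, which encodes hepcidin, the regulator of iron uptake, had 630 and 576. The length in the files tracked the exon length of a gene (rho across genes 0.825) more closely than its span on the genome (0.556). The scale thus does not level genes of different span: the median was 7.54 in the 20% of genes with the longest span and 4.42 in the 20% with the shortest. Of the 15 leading genes, 8 also led when reads were divided by gene span. Adk, Immp2l and Dpyd were among those that did not, while Malat1, Alb, Apoa2 and Hamp did.

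In reads per gene, Malat1 led with a mean of 20133 CPM in liver tissue and 18621 CPM in perfusion. Adk (8539 and 8878 CPM), Dpyd (8380 and 8658 CPM), which starts pyrimidine breakdown, and Alb (8131 and 8038 CPM) followed. Immp2l, Cps1, Ghr, Zbtb20, Abcc2 and Asl completed the leading 10. Cps1, the entry enzyme of the urea cycle, had 5130 and 5434 CPM, and the growth hormone receptor Ghr 5423 and 4736 CPM. Each of the 10 had reads in every nucleus of both libraries. CPM was higher for genes of longer span: the median was 135 CPM in the 20% of genes with the longest span and 25.1 CPM in the 20% with the shortest. The longest-span genes held 40.2% of the reads of measured genes.

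Alb had a long upper tail in liver tissue. It ran from 1576 to 98756 CPM there, with a median of 7359, and from 1502 to 23762 CPM in perfusion, with a median of 7157. In liver tissue 7 nuclei had 20000 CPM or more, a limit chosen after seeing the values, and their median depth was 61070 reads, against 746683 reads in the others. In perfusion 4 nuclei did, with a median of 617502 reads, against 976222. These nuclei also had more Apoa2, with a median of 10007 CPM against 1551 CPM in the rest of liver tissue, and 6701 CPM against 1198 CPM in perfusion. Without them the squared coefficient of variation (CV, the SD over the mean) of Alb was 0.138 for liver tissue, against 0.756 with them, and 0.213 for perfusion, against 0.238. The part of depth in this tail was not tested.

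Both libraries held a lobule axis. A zone score was computed for each nucleus, the mean standardised log2(CPM + 1) of 12 known pericentral genes minus that of 14 known periportal genes. When the score genes were split into 2 sets, each scoring the nuclei by itself, the sets correlated at rho 0.862 in liver tissue and 0.825 in perfusion (Spearman, over nuclei of a library, which share library and depth). The score followed depth at rho -0.01 in liver tissue and 0.12 in perfusion. Scored by the set that left it out, 18 of the 26 genes reached 0.3 in their known direction in both libraries, and 16 did so in all 4 runs. The pericentral drug-metabolising gene Cyp2e1 reached 0.84 and 0.79, Gulo 0.79 and 0.73, and the periportal gene Hal, histidine ammonia-lyase, 0.78 and 0.73. Cyp2c29, listed as pericentral, went the other way at -0.36 and -0.31, and Cps1, listed as periportal, had 0.05 and -0.07. Glul, Slc1a2, Slc22a3, Nt5e, Ass1 and Pigr were below 0.3 in at least 1 library.

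Of 7706 measured genes outside the score, 142 (1.84%) were pericentral, with rho of 0.3 or more in both libraries, and 61 (0.792%) were periportal, at -0.3 or less. All 203 kept their sign in all 4 runs, and 112 pericentral and 45 periportal genes passed 0.3 in each run. The genes at the edge were Snhg11 with a weaker rho of 0.301 and Gbp6 just outside with 0.297, and Aldh1l1 inside with -0.301 and D1Ertd622e outside with -0.295.

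Pericentral genes outside the score were led by Aox3, an aldehyde oxidase. Nuclei of each library were split into 5 quintiles by their score. Aox3 averaged 1483 CPM in the pericentral quintile of liver tissue, against 32.3 CPM in the periportal quintile, and 1190 CPM against 18.4 CPM in perfusion, with rho 0.82 and 0.84. Cyp7a1, the rate-limiting enzyme of bile acid synthesis, averaged 826 CPM against 26.2 CPM in liver tissue and 736 CPM against 12.4 CPM in perfusion. In both libraries its mean was lower in each quintile than in the quintile before it, going from the pericentral to the periportal end. Akr1c6, an aldo-keto reductase, had 859 CPM against 45.3 CPM and 721 CPM against 20.1 CPM. Sult3a1, a sulfotransferase with female-biased expression in mouse liver, had 1141 CPM against 15.6 CPM and 921 CPM against 15.1 CPM. The uptake carrier Slco1b2 changed less in ratio but at a higher level, with 3604 CPM against 898 CPM and 3344 CPM against 761 CPM. Rnase4, Pon1, Cyp27a1, Kcnb2, Aox1, Slc16a10, Ube2e2, Plbd1 and the xenobiotic sensor Ahr completed the leading 15 together with Airn. Airn lies antisense across Igf2r and its reads may be shared with that gene.

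Among leading periportal genes, Gldc, the decarboxylase of the glycine cleavage system, averaged 26.7 CPM in the pericentral quintile of liver tissue, against 679 CPM in the periportal quintile, and 50.4 CPM against 734 CPM in perfusion, with rho -0.72 and -0.70. Uroc1, which acts after Hal in histidine breakdown, had 424 CPM against 1939 CPM and 406 CPM against 2174 CPM, and Ftcd, which ends that pathway, 112 CPM against 496 CPM and 122 CPM against 616 CPM. Cryl1, a sugar dehydrogenase, was almost without reads at the pericentral end, with 3.03 CPM against 389 CPM and 3.24 CPM against 567 CPM. The asparaginase gene Aspg had 23.8 CPM against 533 CPM and 61.4 CPM against 533 CPM. Acly, which makes the acetyl-CoA used for lipid synthesis, had 57.8 CPM against 277 CPM and 93.4 CPM against 356 CPM. Regulators of the Wnt pathway were also there, Tcf7l1, a TCF factor (39.2 CPM against 284 CPM, and 38.8 CPM against 403 CPM), and Ctnnbip1, an inhibitor of beta-catenin (2.78 CPM against 54.2 CPM, and 3.92 CPM against 44.6 CPM). Sfxn1, a mitochondrial serine carrier, Plxna2, Reck, Hrsp12, Nrg4, Tiam2 and Fam46c made up the rest of the leading 15. Nrg4 overlaps Fbxo22 and Tiam2 overlaps Tfb1m, so their reads may be shared.

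**Figure D1:**
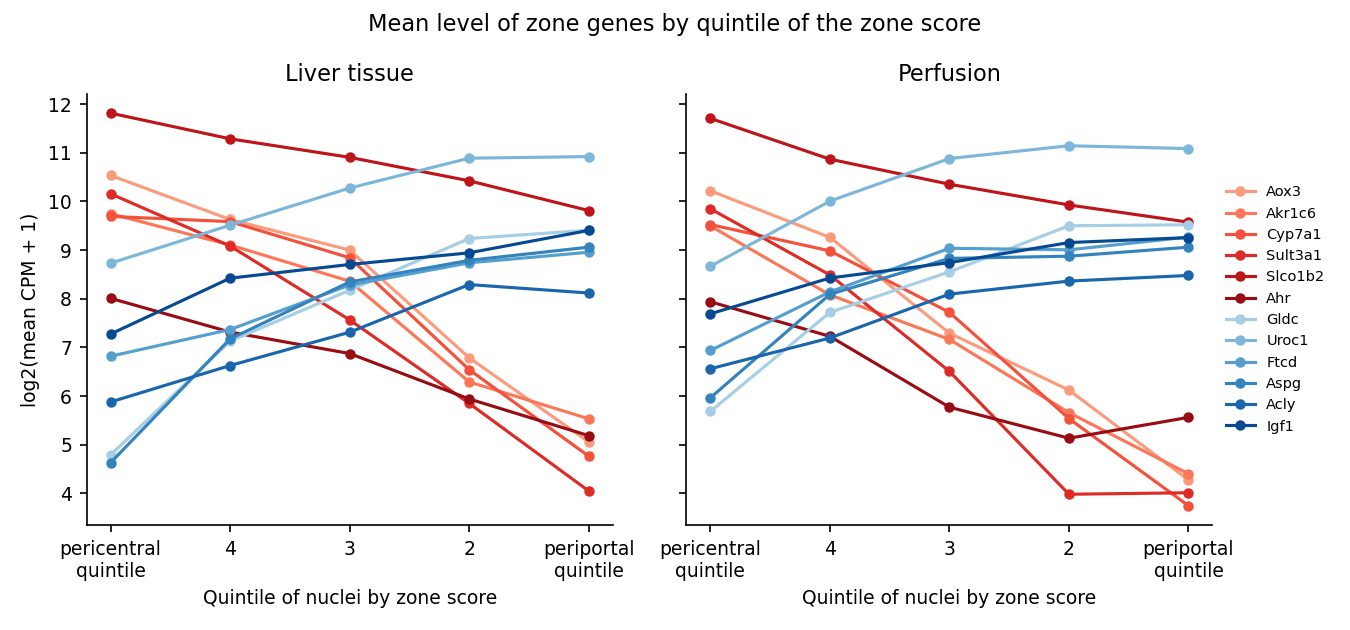
Mean level of 6 pericentral genes (red) and 6 periportal genes (blue) in each quintile of nuclei by zone score, as log2(mean CPM + 1), for liver tissue and perfusion. The red lines run from high at the pericentral quintile to low at the periportal quintile and the blue lines the other way in both libraries, for example Aox3 at 1483 CPM against 32.3 CPM and Gldc at 26.7 CPM against 679 CPM in liver tissue.

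Promoter windows were read beside the zone genes because zone genes move together. The windows hold 250 bases before and 50 bases from the start of each gene, from RefSeq on GRCm38.p6, written 5′ to 3′ on the strand of the gene. A window was found for 77 of the 142 pericentral and 31 of the 61 periportal genes. Capitals mark CTTTGA, the core bound by TCF/LEF factors, CAAAGTCCA, which HNF4 can bind, and TATAAA, the TATA box, on either strand, and none overlapped another in the windows printed. Shown are pericentral Cyp2e1 (chr7:140763569-140763868, plus strand), Sult3a1 (chr10:33857472-33857771, plus strand) and Cyp3a41a (chr5:145720087-145720386, minus strand), Slc1a2, described next (chr2:102706188-102706487, plus strand), and periportal Uroc1 (chr6:90333039-90333338, plus strand) and Gldc (chr19:30175392-30175691, minus strand).
Cyp2e1: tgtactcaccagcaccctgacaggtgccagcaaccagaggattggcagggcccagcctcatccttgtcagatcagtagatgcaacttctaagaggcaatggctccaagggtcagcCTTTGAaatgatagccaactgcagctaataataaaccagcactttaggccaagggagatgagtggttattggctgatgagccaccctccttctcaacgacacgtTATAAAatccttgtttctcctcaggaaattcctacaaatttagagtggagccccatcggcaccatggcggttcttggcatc
Sult3a1: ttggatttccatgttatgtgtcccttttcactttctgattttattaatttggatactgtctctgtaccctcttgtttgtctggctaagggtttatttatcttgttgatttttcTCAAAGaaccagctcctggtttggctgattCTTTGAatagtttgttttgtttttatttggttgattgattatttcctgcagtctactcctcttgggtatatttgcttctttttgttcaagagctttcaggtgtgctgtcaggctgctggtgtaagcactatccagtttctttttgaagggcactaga
Cyp3a41a: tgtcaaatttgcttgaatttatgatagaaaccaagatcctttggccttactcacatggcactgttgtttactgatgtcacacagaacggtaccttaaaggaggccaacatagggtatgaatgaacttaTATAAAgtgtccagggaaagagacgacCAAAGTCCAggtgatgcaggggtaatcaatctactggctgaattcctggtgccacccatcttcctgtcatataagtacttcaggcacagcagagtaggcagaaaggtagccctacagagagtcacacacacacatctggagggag
Slc1a2: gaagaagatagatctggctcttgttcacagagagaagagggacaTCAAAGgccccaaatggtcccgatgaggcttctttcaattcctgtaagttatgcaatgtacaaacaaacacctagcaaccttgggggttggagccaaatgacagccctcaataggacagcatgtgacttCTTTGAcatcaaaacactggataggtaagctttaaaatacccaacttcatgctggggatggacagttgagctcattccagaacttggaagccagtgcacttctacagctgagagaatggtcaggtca
Uroc1: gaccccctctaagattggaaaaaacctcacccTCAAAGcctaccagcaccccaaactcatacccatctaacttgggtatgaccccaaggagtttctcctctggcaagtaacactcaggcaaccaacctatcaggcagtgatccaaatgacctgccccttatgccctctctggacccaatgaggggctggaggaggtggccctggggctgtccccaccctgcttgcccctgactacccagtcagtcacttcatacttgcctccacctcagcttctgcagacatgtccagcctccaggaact
Gldc: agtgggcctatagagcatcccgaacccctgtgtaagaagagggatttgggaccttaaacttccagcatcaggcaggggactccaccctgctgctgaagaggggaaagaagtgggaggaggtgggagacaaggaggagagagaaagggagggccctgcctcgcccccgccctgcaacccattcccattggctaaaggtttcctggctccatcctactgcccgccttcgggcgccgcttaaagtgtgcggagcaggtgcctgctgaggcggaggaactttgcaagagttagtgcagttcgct

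Counting from 1 at the 5′ end of a window, Cyp2e1 held CTTTGA at bases 116 to 121 and TATAAA at 220 to 225. Sult3a1 and Slc1a2 held CTTTGA at 2 positions each, Uroc1 at 1, and Gldc held none of the motifs. CTTTGA on either strand was in 13.0% of pericentral windows and 19.4% of periportal windows, against 12.0% of the 4556 windows of measured genes. TATAAA was in 22.1% of pericentral and 3.23% of periportal windows, against 7.42% of those of measured genes. CAAAGTCCA was in 6.49% of pericentral windows and in 0 of the 31 periportal ones, against 0.571%. The 5 pericentral genes that held it were Cyp3a16, Cyp3a41a, Cyp3a41b, Cyp2c67 and Cyp2c69, and all 5 also held TATAAA. They are members of 2 families of near-identical genes, so they are not separate observations for either motif. CACGTG, the E-box, was in 6.49%, 6.45% and 10.7% of the 3 sets of windows. A match says only that these letters are in the window.

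Of the pathway lists, bile acid synthesis and transport held pericentral calls and no periportal ones. In bile acid synthesis 7 of 16 measured genes were pericentral and 0 periportal: Cyp7a1, Cyp27a1, Cyp7b1, Hsd3b7, Akr1c6, Scp2 and the bile acid receptor Nr1h4. In bile acid transport 5 of 12 were pericentral and 0 periportal, among them the canalicular exporter Abcc2 with 4096 CPM in the pericentral quintile of liver tissue, against 2129 CPM in the periportal quintile. The uptake carrier Slc10a1 was not called, with rho -0.14 and -0.03. Over all measured genes, score genes included, 150 of 7732 were pericentral and 73 periportal.

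Most measured genes of the lipid, sugar and amino acid lists were called at neither end. Of 21 measured genes of fatty acid and triglyceride synthesis, 0 were pericentral and 3 periportal, Acly, Acaca and Fasn. Of 26 genes of fatty acid oxidation and ketogenesis, 4 were pericentral, Acaa1b, Cyp4a10, Cyp4a14 and Cyp4a32, and 0 periportal. Acaca, the committed step of fatty acid synthesis, averaged 396 CPM in the pericentral quintile of liver tissue, against 1329 CPM in the periportal quintile, and 583 CPM against 1500 CPM in perfusion. Cyp4a14, a fatty acid omega-hydroxylase, had 382 CPM against 22.9 CPM and 338 CPM against 19.3 CPM. Of 18 genes of gluconeogenesis and glycolysis, 5 were periportal, among them Pck1, Fbp1, Khk and Pygl, and 0 pericentral. Of 27 genes of the urea cycle and amino acid breakdown, 6 were periportal, Asl, Gls2, Hal, Uroc1, Sds and Gldc, and Glul was pericentral. Hal, Sds, Gls2, Pck1 and Glul were score genes, read with their own value left out. Glul passed only narrowly, with 0.31 and 0.35, and had 0.298 in liver tissue when scored by the other set of score genes.

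Of 11 measured genes of the Wnt list, 6 were pericentral, Lgr5, Tbx3, Znrf3, Rnf43, Ahr and Tnfrsf19, of which Lgr5 and Tbx3 were score genes, and Tcf7l1 was periportal. Xenobiotic metabolism had 9 of 29 genes pericentral and 1 periportal, Cyp2c29. Among the pericentral ones Cyp1a2 and Cyp2a5 were score genes, and Cyp2c29 was in the score as a pericentral gene. Among 11 genes of growth hormone and prolactin signalling, Ghr and Igfbp1 were pericentral and Igf1 periportal. Ghr averaged 6348 CPM in the pericentral quintile of liver tissue, against 4128 CPM in the periportal quintile, and 6220 CPM against 3937 CPM in perfusion. Igf1, its secreted target, whose row overlaps the antisense gene Igf1os, went the other way, with 154 CPM against 677 CPM and 206 CPM against 611 CPM. The prolactin receptor Prlr had reads in 99.7% of liver tissue nuclei and 100% of perfusion nuclei, with means of 644 and 598 CPM, and rho with zone of 0.16 and 0.22. Its row overlaps an unnamed gene model. No measured gene of the acute phase (25 genes), clock (17), unfolded protein (16), interferon (7) or respiratory chain (18) lists was called with zone in either direction, and none of the 30 cell cycle genes was measured. Over all 7732 measured genes 150 were pericentral and 73 periportal, and lists of this size are too small to tell 0 calls from those shares.

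Some genes peaked between the ends. The bile salt and steroid sulfotransferase Sult2a1 averaged 287 CPM in the pericentral quintile, 967 CPM in the middle quintile and 507 CPM in the periportal quintile of liver tissue. In perfusion the same quintiles had 347, 720 and 315 CPM, and the highest mean, 918 CPM, was in the quintile between the pericentral and the middle one. The complement gene C9 had 40.5, 204 and 66.3 CPM in liver tissue and 50.2, 145 and 72.1 CPM in perfusion. In perfusion its highest mean, 163 CPM, was also in the quintile between the pericentral and the middle one. Hamp2 had 265, 835 and 554 CPM and 207, 869 and 579 CPM, and was highest in the middle quintile of both libraries.

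A small set of nuclei at the pericentral end stood out by Slc1a2, a glutamate transporter. Taking 1000 CPM as the limit, chosen after seeing the values, 40 of 308 liver tissue nuclei (13.0%, 95% exact binomial interval 9.44 to 17.3%) and 27 of 298 perfusion nuclei (9.06%, 6.06 to 12.9%) were Slc1a2-high. Intervals cover counting of nuclei only. Their median was 6206 CPM in liver tissue and 6346 CPM in perfusion, against 14.2 and 9.25 CPM in the other nuclei, and 13 and 6 nuclei lay between 100 and 1000 CPM. Of the Slc1a2-high nuclei, 37 and 26 were in the pericentral quintile of a score made without Slc1a2. In liver tissue 24 were in the first run and 16 in the later run, and in perfusion 11 and 16.

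The Slc1a2-high nuclei were then set against the rest of the pericentral quintile, 24 nuclei in liver tissue and 33 in perfusion. Of 7731 genes, 63 (0.815%) were at least 2-fold higher in both libraries and 99 (1.28%) at least 2-fold lower. A gene was counted only with reads in at least 50% of nuclei of the set where it was higher, in each library. The counts thus leave out genes seen in fewer nuclei. All Slc1a2-high nuclei were used, also those outside the quintile, and Glul and Lgr5 were in the score that set it. The sets were not matched for position on the lobule axis, and the part of position in these differences was not tested. Glul, glutamine synthetase, averaged 902 CPM in Slc1a2-high nuclei of liver tissue, against 43.5 CPM in the rest of the quintile, and 1094 CPM against 71.3 CPM in perfusion. Lgr5, the R-spondin receptor, averaged 398 CPM against 102 CPM and 316 CPM against 55.9 CPM. Glul was not on in all of them: 23 of 40 and 19 of 27 Slc1a2-high nuclei had 100 CPM or more, against 19 of 268 and 41 of 271 other nuclei. Lgr5 passed 100 CPM in 34 of 40 and 21 of 27 Slc1a2-high nuclei, against 18 of 268 and 3 of 271 others. Cyp2e1, a broad pericentral gene, differed less, with 1656 CPM against 1406 CPM and 2055 CPM against 1300 CPM.

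Sgcz, a sarcoglycan gene, averaged 342 CPM in Slc1a2-high nuclei of liver tissue, against 2.48 CPM in the rest of the quintile, and 243 CPM against 2.11 CPM in perfusion. It reached 100 CPM in 14 of 40 and 8 of 27 Slc1a2-high nuclei, and in 0 of the 268 and 0 of the 271 others, which allows a share of up to 1.12% and 1.11%. Kif26b, a kinesin-family gene, reached 100 CPM in 9 and 7 Slc1a2-high nuclei and in 0 others. Outside the Slc1a2-high nuclei the means of Sgcz and Kif26b were below the 10 CPM asked of measured genes. Both were thus measured only through the Slc1a2-high nuclei. Their low level elsewhere, and their place among the 63 genes, are in part set by that rule. Slc1a5, a glutamine carrier, averaged 98.96 CPM against 10.4 CPM in liver tissue and 124 CPM against 8.06 CPM in perfusion. It had reads in 47.5% of Slc1a2-high nuclei of liver tissue and so was not among the 63 genes counted as higher. These genes were high in only part of the set: the median of Sgcz in Slc1a2-high nuclei was 6.13 CPM in liver tissue. Among genes that were lower, Sult2a1 averaged 92.5 CPM against 629 CPM in liver tissue and 78.4 CPM against 614 CPM in perfusion. Hamp had 89.3 CPM against 303 CPM and 43.6 CPM against 434 CPM, and Aspg 6.92 CPM against 65.5 CPM and 7.42 CPM against 119 CPM.

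**Figure D2:**
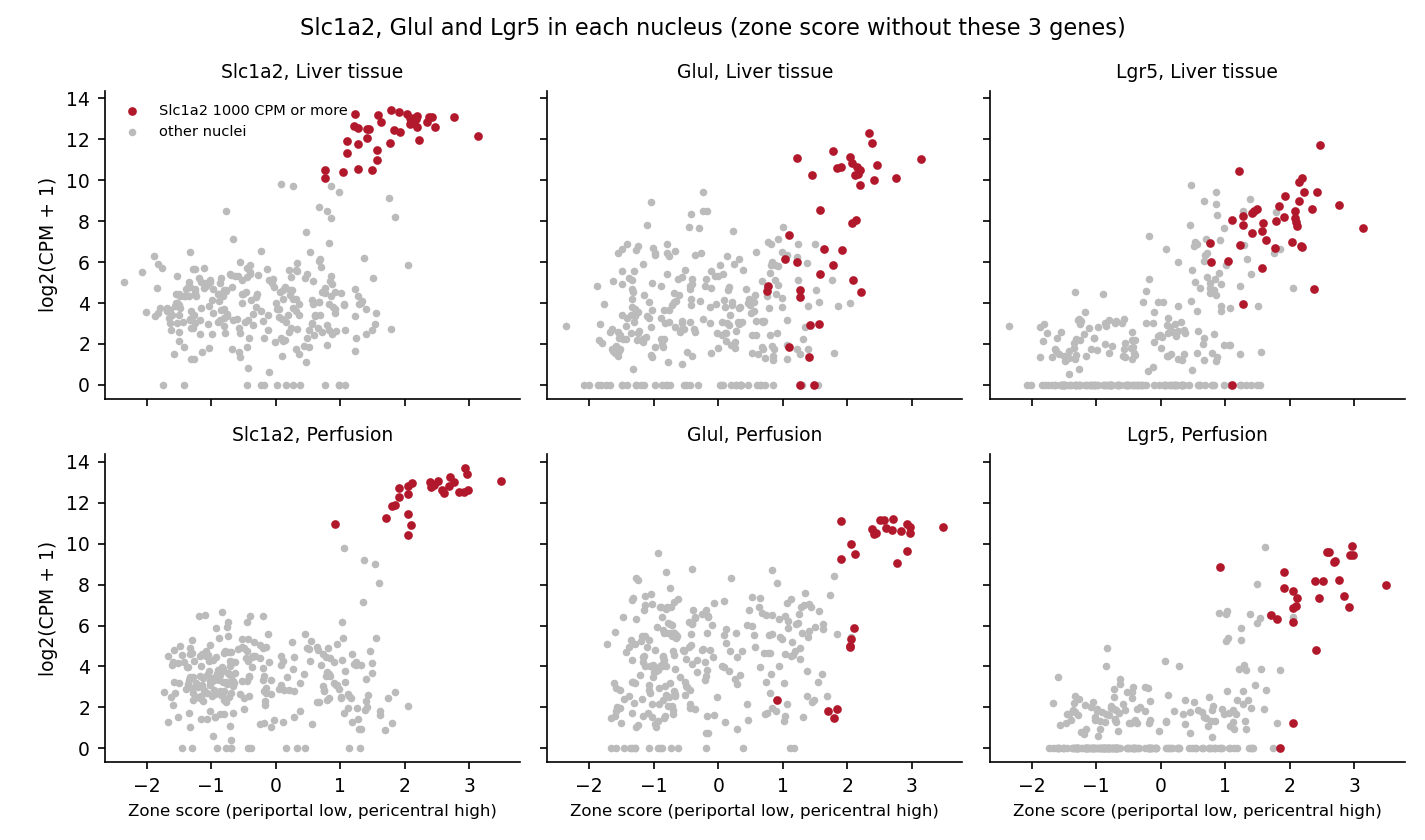
Level of Slc1a2, Glul and Lgr5 in each nucleus, as log2(CPM + 1), against a zone score made without these 3 genes, for liver tissue (top) and perfusion (bottom). Red points are nuclei with at least 1000 CPM of Slc1a2 (40 and 27), which lie at the pericentral end, and grey points are all other nuclei; Glul is high in part of the red points only.

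The spread between nuclei was read for each gene as its squared CV, divided by the running median over 301 genes of like mean level. A gene was called variable at 2-fold or more over that trend in both libraries. The call took 331 of 7732 measured genes (4.28%). It took 63 of 4136 genes with reads in at least 80% of nuclei (1.52%) and 268 of the other 3596 (7.45%). Of the 331, 47 had only a gene-model or clone name. Across measured genes the squared CV in liver tissue and perfusion correlated at rho 0.91 and the fold over the trend at 0.64. In all 4 runs 133 genes were called, of which 126 were among the 331. The gene nearest the limit inside was Wdr74, with a log2 excess of 1.0015, and outside Ostm1, with 0.99944.

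Most variable was Atp6v1h, a subunit of the proton pump of lysosomes, at 23.4-fold over the trend in liver tissue and 28.0-fold in perfusion. Its median was 62.2 CPM in liver tissue and 83.0 CPM in perfusion, and its highest nucleus had 19048 CPM and 21027 CPM. It reached 1000 CPM in 23 and 24 nuclei, and the highest 10% of nuclei held 81.4% and 77.1% of its reads. Its rho with zone was 0.01 and 0.13, and its closest partner among measured genes, Acot4, reached only rho 0.15 and 0.14. Slc1a2 came next, at 19.2-fold and 26.7-fold, with Sgcz at 12.9-fold and 16.5-fold and Glul at 9.25-fold and 6.23-fold, which are 3 genes high in the Slc1a2-high nuclei. Sgcz was below the trend in at least 1 of the 4 runs, with a log2 excess of -0.84 there.

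Several other leading genes had a median near 0 CPM and a few nuclei far above it. Diap3, a formin, was at 7.98-fold and 14.1-fold with a median of 0 CPM and a highest nucleus of 1679 CPM in liver tissue and 1752 CPM in perfusion. Cdca2, a cell division gene, was at 11.1-fold and 7.61-fold, and it had reads in 19.5% and 16.4% of nuclei. Dqx1, a helicase gene, was at 6.95-fold and 11.4-fold, with highest nuclei of 2565 CPM and 3439 CPM. Oasl1, Herc6 and Il33 were at 5.09-fold and 11.9-fold, 3.95-fold and 3.77-fold, and 3.88-fold and 4.01-fold. Slc1a5, Dnase1l3, Kif26b, Spon1, Wrb, Pdgfrl, Neurl4 and Ugt2b37 were also among the leading 20, as were the pericentral genes Cyp2c38 and Sult3a1, which had reads in at least 87.9% of nuclei of each library. When each gene was capped at its own 99th percentile, 200 of the 331 remained called.

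Other called genes had reads in most nuclei and wide percentiles. Hamp was at 3.37-fold over the trend in liver tissue and 5.96-fold in perfusion. Its 10th and 90th percentiles over nuclei were 32.8 and 2103 CPM in liver tissue and 16.5 and 2332 CPM in perfusion. Scd1, the stearoyl-CoA desaturase, was at 3.34-fold and 4.19-fold, with percentiles of 85.0 and 1102 CPM and of 48.5 and 1487 CPM. Cdh18, a cadherin, was at 3.53-fold and 3.24-fold, with percentiles of 2.28 and 638 CPM and of 2.11 and 633 CPM. The lipogenic genes Thrsp, at 2.91-fold and 2.90-fold, and Elovl6, at 2.35-fold and 2.88-fold, were called too. Sult2a1 was at 2.57-fold and 3.15-fold and Igf1 at 2.33-fold and 2.56-fold.

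Of the 321 variable genes outside the score, 21 (6.54%) were called with zone, against 2.63% of all measured genes outside the score. Of the 331, 16 were higher in the first run and 7 in the later run, against 0.867% and 0.31% of all measured genes. Some variable genes called with a run were zone genes too, such as Cyp4a10, Bmper and Igf1. In all, 284 of the 331 were called with neither zone nor run. Both calls need both libraries, so a gene without them may still vary with zone or run. Scd1 had neither call but averaged 927 CPM in the first run and 100 CPM in the later run of perfusion. Slc1a2 was not called with zone, but 37 of 40 and 26 of 27 Slc1a2-high nuclei were in the pericentral quintile. In the pathway lists, 5 of 21 genes of fatty acid and triglyceride synthesis were variable, against 4.28% of all measured genes: Scd1, Elovl6, Thrsp, Dgat1 and Pnpla3, the last of which also differed between the runs. Of the 22 genes of the interferon list 7 were measured, and 0 of these were variable, too few to set against 4.28%. Respiratory chain genes lay lowest, with a median log2 excess of -1.05 over 18 genes, against -0.22 over all measured genes. Atp5a1, a subunit of ATP synthase, was at 0.31-fold and 0.29-fold of the trend.

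The least variable genes with reads in most nuclei were Adk, Pisd-ps2, Atp6v0a4, Aaed1 and Immp2l. Pisd-ps2, a pseudogene transcript, was at 0.189-fold of the trend in liver tissue and 0.198-fold in perfusion, and Adk at 0.179-fold and 0.180-fold. The running median is flat for the most abundant genes, so the low values of Adk and Immp2l are read against genes of lower mean. With a window of 51 genes Adk was at a log2 excess of -1.70 and -1.83 and Immp2l at -1.19 and -1.50. Atp6v0a4 overlaps an unnamed gene model and Aaed1 overlaps Cdc14b, so their reads may be shared.

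**Figure D3:**
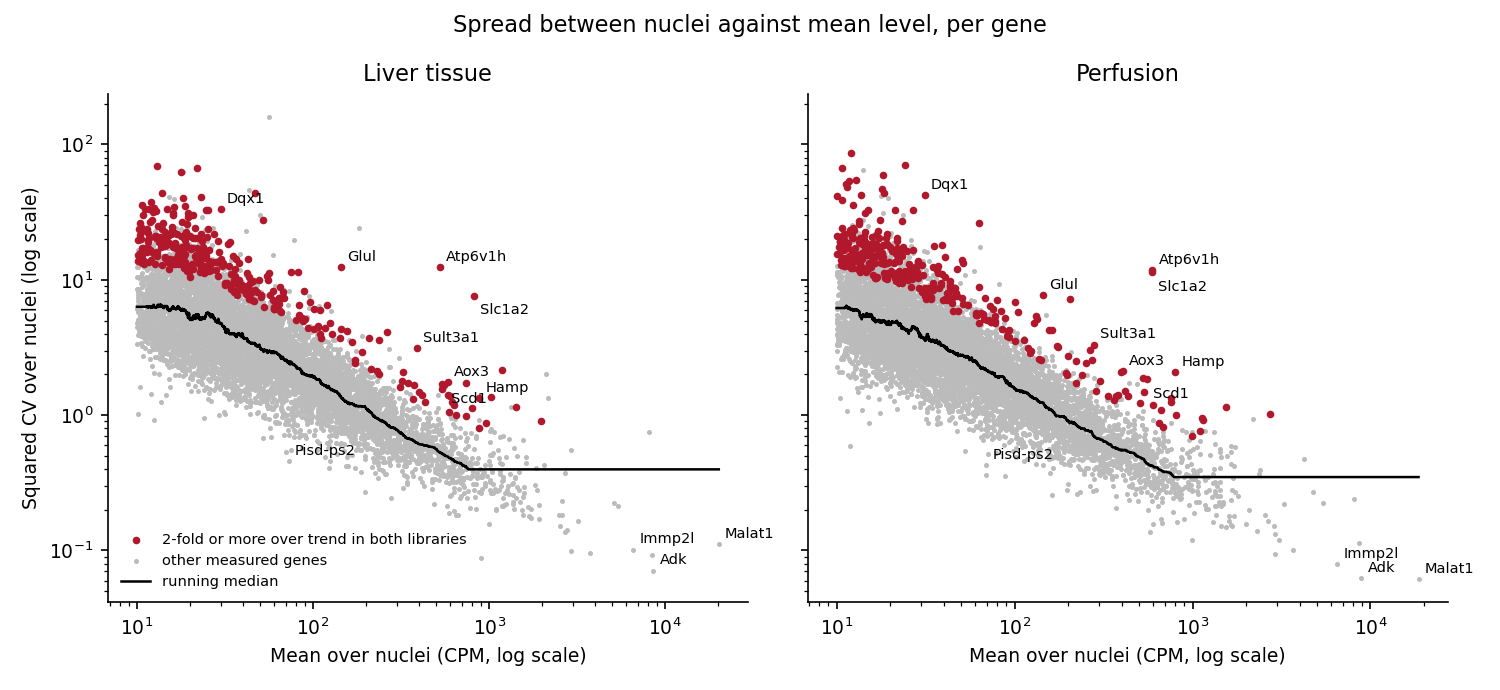
Squared CV over nuclei against mean CPM for each measured gene (both log scales), in liver tissue and perfusion, with the running median as a line. The 331 genes at 2-fold or more over the line in both libraries are red; Atp6v1h, Slc1a2 and Glul lie far above it at their level and Adk, Immp2l and Malat1 far below.

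On/off genes were sought after thinning each nucleus to 250000 reads, which 294 liver tissue and 296 perfusion nuclei could give. A gene was called where at least 20% of nuclei had 0 reads and at least 20% had 20 reads or more, in both libraries. The call took 91 of 7732 genes (1.18%). Of these, 10 were also called variable, 6 were called with zone, 8 with a run and 79 with neither zone nor run. Over all measured genes 4.28% were variable, and 150 of 7732 were pericentral and 73 periportal. Higher in the first run were 0.867% and in the later run 0.31%. The smaller of the off and on shares was 20.1% for Pim1, just inside, and 19.9% for Msl3, just outside.

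Caln1, a calcium-binding protein gene, was off in 81 of 294 liver tissue nuclei (27.6%, 95% interval 22.5 to 33.0%) and on in 99 (33.7%, 28.3 to 39.4%). In perfusion it was off in 82 of 296 (27.7%, 22.7 to 33.2%) and on in 114 (38.5%, 32.9 to 44.3%). Dnah8, an axonemal dynein gene that overlaps Glo1, was off in 117 and 122 nuclei and on in 78 and 75. Pnpla3, a lipid droplet protein, was off in 130 and 118 nuclei and on in 74 and 86. Cryl1 was off in 112 and 74 nuclei and on in 80 and 125. Slc16a1, the lactate and ketone body carrier MCT1, was off in 113 and 94 and on in 73 and 86. Bcorl1, a corepressor, was off in 81 and 79 and on in 84 and 81. Mzt1, Zfp532, Srgap3, Mme, Ppm1g, Vtcn1, Gpr39 and Prdm9 were also among the leading 15. The state between off and on was common: 114 and 100 nuclei for Caln1 and 129 and 136 for Bcorl1. When the call was required in each of the 4 runs, 10 genes kept it, among them Cryl1, Dnah8, Bcorl1, Mzt1, Srgap3, Plekha7 and Uchl5, and Caln1 and Pnpla3 did not.

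A gene was called between the runs at a 2-fold difference of mean CPM + 1 in the same direction in both libraries. By this rule 67 of 7732 genes (0.867%) were higher in the first run and 24 (0.31%) in the later run. Capn11, a calpain gene, averaged 48.7 CPM in the first run and 1.07 CPM in the later run of liver tissue, and 56.3 and 0.43 CPM in those of perfusion. Pnpla3 averaged 192 and 11.5 CPM in liver tissue and 227 and 10.2 CPM in perfusion. Cux2, a repressor with female-biased expression in mouse liver, averaged 385 and 47.9 CPM in liver tissue and 444 and 49.7 CPM in perfusion. It had reads in 100% of nuclei of the first run in each library, against 78.8% and 79.1% of the later run. The nuclear receptor gene Nr0b2 (SHP), which represses Cyp7a1, had 28.2 and 8.91 CPM and 55.0 and 17.6 CPM. Cyp4a10, a PPAR-alpha target, had 363 and 112 CPM and 341 and 74.9 CPM. Of 26 measured genes of fatty acid oxidation, 5 were higher in the first run, Cyp4a10, Cyp4a14, Cyp4a31, Fabp1 and Plin2, and 0 in the later run.

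Among genes higher in the later run, Alas1, the rate-limiting enzyme of haem synthesis, averaged 229 CPM in the first run and 603 CPM in the later run of liver tissue. In perfusion it averaged 261 and 722 CPM. Igf1 averaged 182 CPM in the first run and 646 CPM in the later run of liver tissue, and 254 and 650 CPM in those of perfusion. The growth factor receptor Egfr averaged 682 and 1713 CPM and 788 and 1961 CPM. Fhod3, a formin, averaged 7.72 and 37.4 CPM and 5.67 and 32.5 CPM, and Mme, the peptidase neprilysin, 29.98 and 109 CPM and 36.8 and 119 CPM. Caln1 had 65.4 and 216 CPM and 88.0 and 278 CPM. Some genes did not agree between the libraries: Scd1 averaged 433 CPM in the first run and 678 CPM in the later run of liver tissue, and 927 and 100 CPM in those of perfusion. Across measured genes the log2 difference in liver tissue and in perfusion correlated at rho 0.27. The median zone score was 0.10 in the first run and -0.25 in the later run of liver tissue, and -0.30 and -0.44 in those of perfusion, and its part in these differences was not tested.

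**Figure D4:**
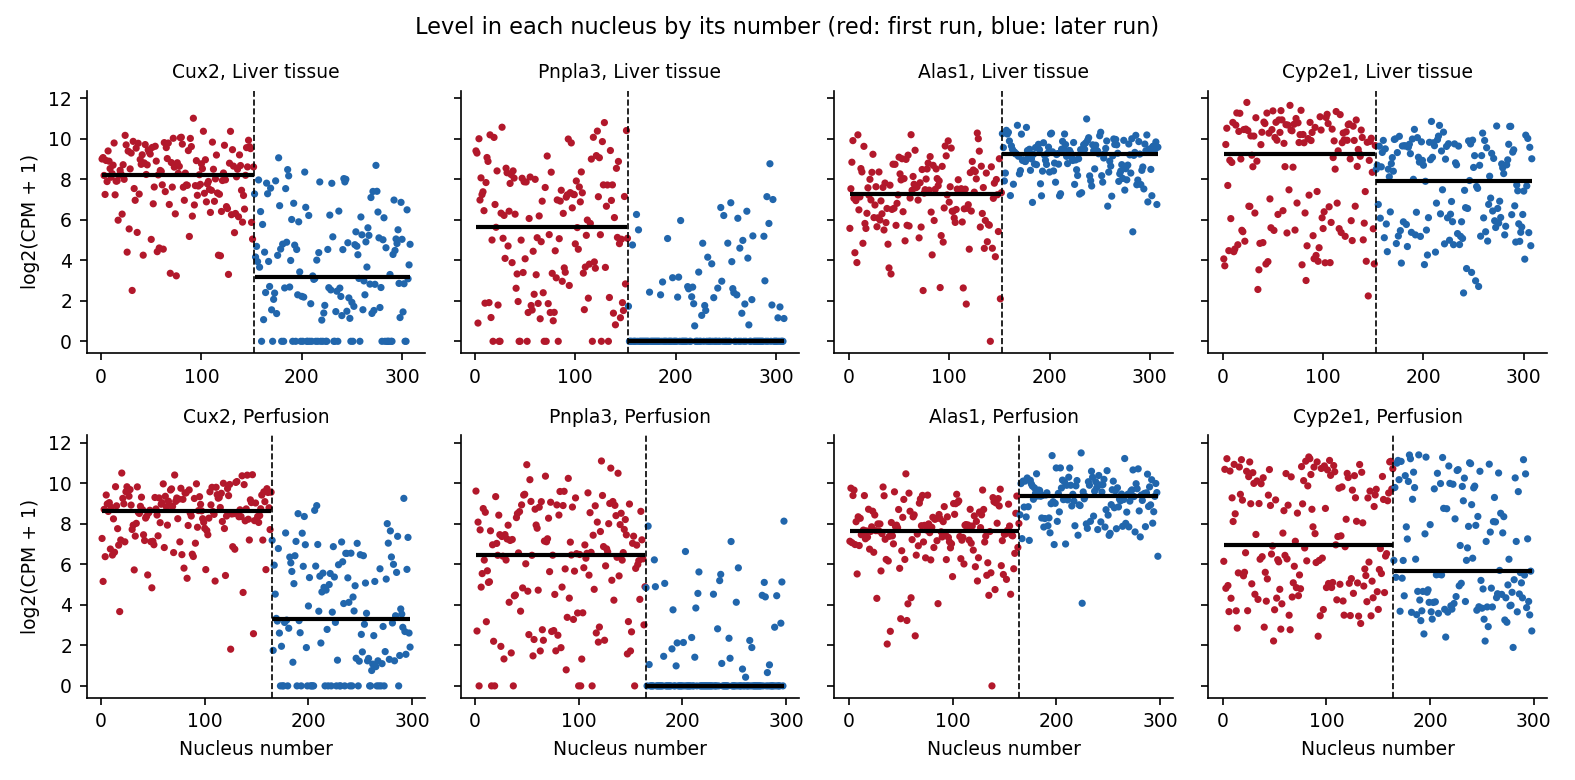
Level of Cux2, Pnpla3, Alas1 and Cyp2e1 in each nucleus, as log2(CPM + 1), by nucleus number, for liver tissue (top) and perfusion (bottom); the dashed line is the break after nucleus 152 or 164, red points are the first run, blue points the later run and black bars the median. Cux2 and Pnpla3 are higher in the first run and Alas1 in the later run of both libraries. Cyp2e1 was not called between the runs by its mean, but its median was also higher in the first run of both libraries. Its medians were 598 CPM in the first run and 240 CPM in the later run of liver tissue, and 121 and 50.2 CPM in those of perfusion.

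**Figure D5:**
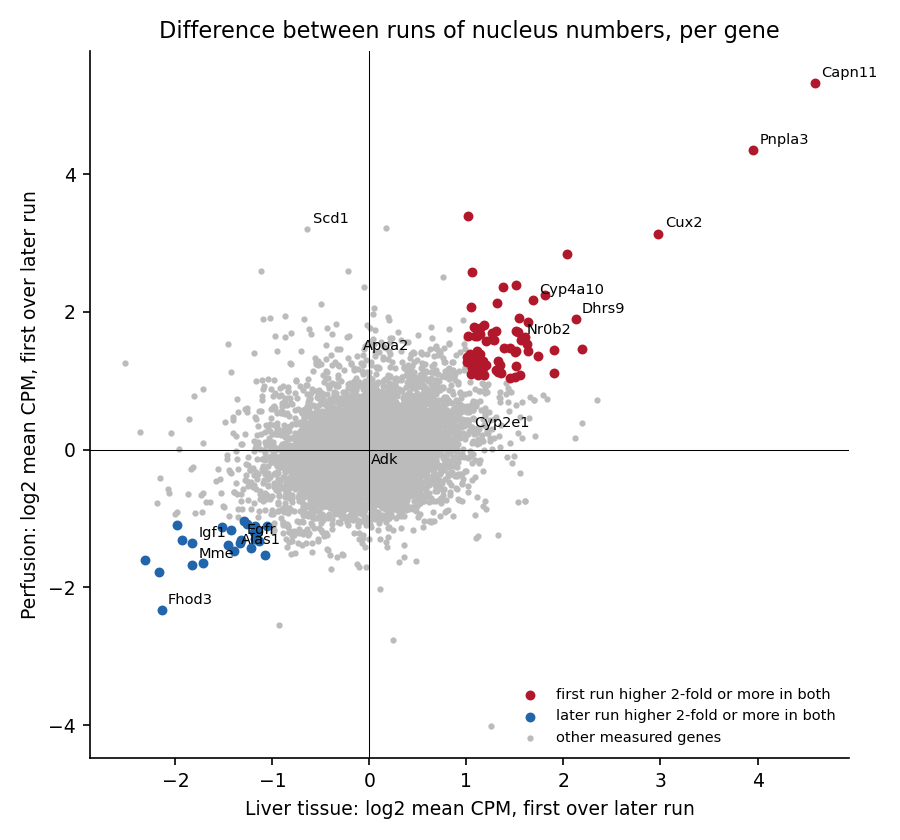
Log2 of mean CPM in the first run over the later run for each measured gene, liver tissue across and perfusion up. The 67 red genes are at least 2-fold higher in the first run in both libraries and the 24 blue genes in the later run; Capn11, Pnpla3 and Cux2 lie farthest out and Scd1 has opposite signs.

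Pairs of variable genes were then read for variation together, at rho 0.4 or more in both libraries, leaving out overlapping genes. Of 54615 pairs 73 (0.134%) were linked, and they formed 3 groups of at least 3 genes. The largest had 14 genes, all pericentral, with 50 links: Akr1c6, Sult3a1, Cyp2e1, Cyp7a1, Aox3, Airn, Slc16a10, Cyp2c38, Lgr5, Cyp4a14, Pparg, Car3, Cyp4a10 and a gene model. Of these, Cyp2e1 and Lgr5 were score genes. The zone calls of the others thus rest in part on genes of their own group. Cyp2e1 and Aox3 correlated at 0.80 in liver tissue and 0.79 in perfusion, with 0.75 in the weakest of the 4 runs. Akr1c6 and Sult3a1 correlated at 0.76 and 0.75. The next had 9 periportal genes and 20 links: Cryl1, Sds, Hsd17b6, Etnppl, Gldc, Reck, Arhgap10, Cdh1 and Bmper. Of these, Sds, Hsd17b6, Etnppl and Cdh1 were score genes, with the same limit. Cryl1 and Sds, serine dehydratase, correlated at 0.66 and 0.67, with 0.61 in the weakest run. The last joined Apoe, Apoa1 and Scd1, and Apoe and Apoa1 correlated at 0.55 and 0.68 but at 0.02 in the later run of perfusion. With the zone score held fixed, 4 pairs stayed at 0.4 or more. The score itself holds genes of the pericentral and periportal groups, so part of this fall is built in. Another 54 pairs (0.0989%) were opposed, at rho -0.4 or less in both libraries.

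Over all 7732 measured genes, 1119 of 29888046 pairs (0.00374%) were linked and 711 (0.00238%) opposed. The pericentral group then held 102 genes, 98 of them called pericentral and 7 of them score genes. It had 802 links, of which 474 passed 0.4 in each of the 4 runs. The next group held 61 genes, 42 of them called periportal and 9 of them score genes. It had 259 links, of which 140 passed 0.4 in each run. It held Alb, Apoa2, Apoe, Apoa1, Scd1, Mup3 and Mup17, and its mean standardised level, Alb included, followed Alb at rho 0.64 in liver tissue and 0.69 in perfusion. Apoe and Apoa2 correlated at 0.69 and 0.73 over a library and at 0.07 in the later run of perfusion. Another group of 15 genes held Cux2, Pnpla3, Cp, Abcb11, Kng1, Fabp1, Lipc, Capn11 and Esr1, and 0 of its 25 links passed 0.4 in each run. Pnpla3 and Cux2 correlated at 0.51 and 0.66 over a library and at 0.06 in the weakest run. A further group held small nuclear RNAs, Snord118, Snord13, Rn7sk, Scarna2 and Rpph1 among 7 genes. Snord118 and Snord13 correlated at 0.87 and 0.85, with 0.79 in the weakest run, and the median rho of the group with depth was -0.21 and -0.29. The last groups joined Cdc45, Gnb1l, Arl3 and Fopnl with 2 gene models, and Sult2a1, Sult2a2 and a gene model. Cdc45 and Arl3 correlated at 0.60 and 0.68. Sult2a1 and Sult2a2 are near-identical genes whose reads may be shared.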

How the data were processed

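Raw read counts, whole numbers for each gene in each nucleus, came from the authors' deposited count table. The submitters' processing notes name featureCounts 1.5.3, HISAT2 2.1.0 and Trimmomatic 0.39, with GRCm38 (mm10) as the build. Strand use, the feature type counted and any removal of nuclei are not given in the sources used here, and the counts are of reads. A companion table deposited by the authors holds values akin to TPM. As worked out from the numbers, reads were scaled by gene length and then to a sum of 100000 in a nucleus, leaving Alb, Apoa2 and Fabp1 out of the sum. It served to rank genes by level and as an alternative for the spread.

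Counts were scaled to CPM, log2 used a pseudocount of 1, and computation used Python 3.11.15 with numpy 2.4.6, scipy 1.17.1 and pandas 2.3.3. The scripts were tested on simulated data. Members, gene lists and limits were chosen with earlier results of these data known. Genes named are the leading ones of each call (15 per length, 10 by CPM, 20 variable and 10 more with reads in at least 80% of nuclei, 5 least variable, 15 on/off, 15 in each zone direction), the strongest links, and up to 3 members of each list by spread and by zone. The Slc1a2-high nuclei, the nuclei with much Alb, the runs, the middle-quintile genes and the genes named in them were chosen after seeing the values. Reads of near-identical genes (Cyp2c, Cyp3a, Cyp4a, Sult2a and Aox families) and of overlapping genes may be split or shared. Depth per nucleus began at 28679 reads, so nuclei were thinned for on/off calls. Genes with only a gene-model or clone name were counted and not named. Values of some genes that the rule names are not reported here.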

Additional observations from a re-analysis of the deposited data

How the results depend on the processing

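Alternatives that use the runs, leave out shallow nuclei, score without Cyp2c29 and Cps1, take all measured pairs, divide by gene span or use a 51-gene window, and those for the runs and the Slc1a2-high nuclei, were chosen after seeing the data. The count of variable genes was 924 at 1.5-fold and 78 at 3-fold, 87 at a mean of at least 50 CPM, 688 at 1 CPM with no share of nuclei, 715 on the authors' per-length values and 133 in all 4 runs, and 713 to 758 in a single library. Capping at the 99th percentile gave Dqx1 a log2 excess of -0.28 and Neurl4 -0.31, and the weakest of the 4 runs gave -0.84 for Sgcz and -0.39 for Neurl4. The count of on/off genes followed its limits: 592 when thinned to 100000 reads with 8 reads as on, 0 at 30% off and on, 1387 at 10 reads, 1 at 50 reads, 13 without thinning and with 80 CPM as on, 10 in all 4 runs and 178 to 234 in a single library. Zone counts were 301 pericentral and 146 periportal at rho 0.2, 77 and 31 at 0.4, and 93 and 32 with the score taken as a share of reads. A single library gave 164 to 228 pericentral genes. Linked pairs numbered 130 at rho 0.3, 32 at 0.5, 4 with zone held fixed, 46 in all 4 runs and 1119 over all measured genes. Dividing by gene span kept 8 of the 15 leading genes per length and 2 of the 10 by CPM. Between the runs, 251 genes were higher in the first and 189 in the later at 1.5-fold, and 9 and 5 at 3-fold, and a single library gave 204 to 306 and 153 to 191. The cause of these moves was not tested. For each named gene the main value and the value in a setting were both read against that setting's limit. They fell on the same side in 510 of 510 comparisons for zone and in 292 for spread, with 14 weaker and the 4 reversals given above. For the runs 147 did, with 3 weaker, and for on/off 86, with 34 weaker. Settings that changed only the call limit, and for zone the genes measured, reused the main values and could give no other label. A single library could not fall below the main value in size. These tallies are therefore not counts of calls kept: at 30% off and on, 0 genes were called. No paired analysis was possible because the stage has 1 library of each preparation and no groups of samples were compared. On/off calls depend on depth and on the limits set, and whether 0 reads means no transcript was not tested.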
